A study of Mus musculus with 2 samples.

Results

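The inflammatory CC chemokines are 10 secreted leukocyte attractants, Ccl2, Ccl3, Ccl4, Ccl5, Ccl6, Ccl7, Ccl8, Ccl9, Ccl12 and Ccl24, taken by gene symbol from the 24510 genes of a single-cell RNA count table. Their levels were described across immune classes that were gated on the molecule counts of other genes, so no chemokine took part in choosing the cells it was measured in. CC chemokines are small proteins that bind heptahelical receptors on leukocytes and draw them along a concentration gradient. CCL2, CCL7 and CCL12 recruit monocytes through the receptor CCR2, CCL3, CCL4 and CCL5 act on macrophages, T cells and other leukocytes, and CCL24 attracts eosinophils through CCR3. In tumours, myeloid cells are a known source of several of these genes, and the monocytes they draw in can mature into macrophages.

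The study implanted B16F10 cells, a transplantable mouse melanoma line of C57BL/6 origin, into C57BL/6 females at the right flank. The implanted cells were Tyr knockout, Oca2 knockout or unedited (WT), with 3 mice per group, and CD45+ leukocytes were sorted from the dissected tumours. Tyrosinase, which Tyr encodes, starts melanin synthesis, and Oca2 encodes a melanosome membrane protein. Both were removed in the tumour cells and not in the hosts, and the labels do not say whether a knockout line was 1 clone. Cells of each group received a sample tag, an oligonucleotide barcode, and were pooled into 1 BD Rhapsody capture, a microwell system that counts RNA molecules per cell from their 3′ ends. The labels do not tie tags 8, 9 and 10 to a genotype nor state that the mice of 1 group had separate tags, so each tag is given as 1 sample of unnamed genotype, and no comparison between genotypes and no test was made.

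Of 13090 cells with 1 tag, 10491 passed the limits on genes and mitochondrial molecules (3336, 3486 and 3669 in tags 8, 9 and 10), with a median of 3489 molecules per cell. No cell barcode was shared between tags. Tag 8 lost more cells to the mitochondrial limit, 26.2% against 17.4% in tag 9 and 14.9% in tag 10. Gates placed 6823 cells (65.0%) in 20 immune classes, of which 19 had at least 50 cells. A further 2349 cells passed no gate, 1297 passed the gates of more than 1 lineage and were left out, and 21 fibroblast-like cells and 1 melanoma-like cell were set aside. The classes were checked with 35 genes that no gate used, in 47 pairs of a gene and a class, since each T-like class was checked with the same genes. In 41 pairs the gene was higher in its class than in the other gated cells; the 6 exceptions were Cd2 and Lck in gamma-delta 17 T-like cells, Fn1 in monocyte-like cells, Cd1d1 in Cd209a DC-like cells, Irf7 in pDC-like cells and Ear2, at 0 in eosinophil-like cells. Small classes were NK-like (99 cells, 16 of them in tag 8), eosinophil-like (80) and pDC-like (58).

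In GRCm38, 9 of the 10 genes lie on chromosome 11 in 2 groups. Ccl2 (chr11:82035571-82037453), Ccl7 (chr11:82045712-82047525), Ccl12 (chr11:82101845-82103400) and Ccl8 (chr11:82115185-82116799) span 81.2 kb on the plus strand. After a gap of 1409 kb follow Ccl5 (chr11:83525778-83530518), Ccl9 (chr11:83572919-83578636), Ccl6 (chr11:83587882-83593087) and Ccl3 (chr11:83647844-83649355) on the minus strand and Ccl4 (chr11:83662584-83664683) on the plus strand, a group of 139 kb. Ccl24 lies on chromosome 5 (chr5:135569937-135573049, minus strand). All 10 are protein-coding, with 3 exons, or 4 in Ccl6 and Ccl9. Ccl2 overlaps the gene Gm17268 and Ccl6 the gene E230016K23Rik on the opposite strand, and the sources used here do not state whether counting used strand, so their counts may include reads of the partner. The longest run of identical bases between transcripts of 2 members was 25, for Ccl6 and Ccl9.

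RefSeq promoters, 250 bases before to 50 bases after the annotated start, were available for 5 members (GRCm38.p6, printed 5′ to 3′ on the strand of the gene). The promoters of Ccl8 (chr11:82114935-82115234, plus strand) and Ccl12 (chr11:82101595-82101894, plus strand) are shown because these genes were highest in the same macrophage class. Capitals mark the TATA box TATAAA, whose first base is at -32 in Ccl8 and at -31 in Ccl12 relative to the annotated start.
Ccl8 promoter: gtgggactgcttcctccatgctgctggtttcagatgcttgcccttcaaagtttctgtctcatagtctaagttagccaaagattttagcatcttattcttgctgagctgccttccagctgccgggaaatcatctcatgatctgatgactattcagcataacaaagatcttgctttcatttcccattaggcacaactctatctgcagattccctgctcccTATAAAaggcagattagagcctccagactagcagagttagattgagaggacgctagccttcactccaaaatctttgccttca
Ccl12 promoter: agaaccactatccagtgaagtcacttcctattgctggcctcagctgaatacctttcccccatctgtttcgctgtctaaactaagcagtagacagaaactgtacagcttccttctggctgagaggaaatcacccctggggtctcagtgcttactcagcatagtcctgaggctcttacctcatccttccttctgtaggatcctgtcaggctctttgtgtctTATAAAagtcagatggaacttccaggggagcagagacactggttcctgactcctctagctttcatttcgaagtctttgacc
The letters TATAAA, on either strand, are in 13.6% of all 32851 promoters of this length. The promoters of Ccl6 (chr11:83593038-83593337, minus strand) and Ccl9 (chr11:83578587-83578886, minus strand) are shown because the levels of these genes had the highest correlation of all pairs across the classes. Here capitals mark their longest shared run, 13 bases, which starts at -55 in Ccl6 and at -14 in Ccl9.
Ccl6 promoter: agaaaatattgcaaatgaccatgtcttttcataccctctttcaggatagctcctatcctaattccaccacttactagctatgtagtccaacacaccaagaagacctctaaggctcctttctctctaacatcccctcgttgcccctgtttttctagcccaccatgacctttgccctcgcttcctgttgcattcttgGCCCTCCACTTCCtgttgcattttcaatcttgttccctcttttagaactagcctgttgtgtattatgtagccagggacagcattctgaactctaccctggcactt
Ccl9 promoter: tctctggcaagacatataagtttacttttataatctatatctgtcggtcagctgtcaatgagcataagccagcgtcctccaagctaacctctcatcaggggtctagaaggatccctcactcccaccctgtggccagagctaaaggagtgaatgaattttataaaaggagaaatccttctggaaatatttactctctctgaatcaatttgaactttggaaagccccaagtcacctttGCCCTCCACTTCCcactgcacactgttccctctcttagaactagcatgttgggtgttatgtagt
The shared run of Ccl8 and Ccl12 was 11 bases, and those of the other 8 promoter pairs were 7 to 9. The letters TATAAA are also in the Ccl9 promoter. The Ccl9 promoter holds TGAATCA, a match to the letters TGANTCA, a pattern looser than the AP-1 consensus. This pattern is in 7.81% of all promoters and not in those of the other 4. The letters GAGGAA, the core bound by the ETS factor PU.1, are in the Ccl3, Ccl8 and Ccl12 promoters and in 28.3% of all. The C/EBP letters TTNNGNAA are in those of Ccl3 and Ccl9 and in 40.7% of all, each on either strand.

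Levels below are molecules of a gene per 1000000 molecules of the class (counts per 1000000, CPM), summed over the cells of a class in each tag. The values are compared between classes for 1 gene and not between genes. Intervals cover counting error only.

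The CCR2 ligands, and Ccl8 from the same group of genes, were macrophage and monocyte transcripts. Ccl2, which recruits monocytes, had 5248, 2500 and 2108 CPM in tags 8, 9 and 10 in Arg1-high C1q-low cells, macrophage-lineage cells with many molecules of the arginase gene Arg1 and few of complement C1q. In C1q macrophage-like cells with Folr2 or Cd163, markers of resident-type macrophages, it had 4144, 3460 and 2671 CPM. In C1q macrophage-like cells without these markers it had 4021, 2284 and 2072 CPM. Ccl2 had 3273, 1402 and 1784 CPM in monocyte-like cells. These 4 classes overlapped one another over tags, tag 8 was the highest in each of them, and the lowest of their values was above every other class of at least 50 cells. The next class, neutrophil-like cells, had 102, 221 and 199 CPM. The part of the larger mitochondrial loss of tag 8 in its higher Ccl2 levels was not tested.

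Ccl7, another CCR2 ligand, had the same 4 leading classes. It had 2979, 2359 and 1910 CPM in Folr2 or Cd163 positive C1q macrophage-like cells, 2666, 1549 and 1089 CPM in Arg1-high C1q-low cells and 2487, 1471 and 1034 CPM in Folr2 and Cd163 negative C1q macrophage-like cells. In monocyte-like cells it had 1630, 718 and 679 CPM. The order of these 4 classes was the same in every tag, although their ranges over tags overlapped. At a fixed depth of 1000 molecules per cell, Ccl7 was found in 68.4% (95% exact binomial interval 63.7 to 72.9%) of the Folr2 or Cd163 positive cells and in 1.66% (0.454 to 4.19%) of B-like cells, a class taken as background for molecules of free RNA. Without thinning the shares were 91.99% and 4.53%, at median depths of 11762 and 2197 molecules.

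Ccl12, a mouse CCR2 ligand, had 631, 838 and 488 CPM in Folr2 or Cd163 positive C1q macrophage-like cells, 388, 637 and 472 CPM in the negative ones, 323, 305 and 382 CPM in the monocyte-like class and 263, 210 and 59.98 CPM in Arg1-high C1q-low cells. The positive and negative C1q cells overlapped, while both lay above monocyte-like cells, and these above Arg1-high cells, in all 3 tags with no overlap. The 10% of cells with most Ccl12 held 83.0% of its molecules in monocyte-like and 83.5% in Arg1-high C1q-low cells. Ccl8, whose product is a ligand of CCR8 in the mouse, had the narrowest pattern. It had 491, 639 and 738 CPM in Folr2 or Cd163 positive and 73.7, 306 and 273 CPM in Folr2 and Cd163 negative C1q macrophage-like cells, with no overlap. It had 10.4, 23.7 and 35.3 CPM in Arg1-high C1q-low cells and 80.5, 26.0 and 51.7 CPM in monocyte-like cells, against 5.28 CPM (3 molecules) over all B-like cells.

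Ccl8 molecules were held by few cells. The 10% of Folr2 or Cd163 positive cells with most Ccl8 held 81.6% of its 3257 molecules in that class, and 293 molecules were in 1 cell. In the same class, the top 10% of cells held 33.4% of the Ccl2 molecules and 34.7% of the Ccl7 molecules. Of all Ccl8 molecules in gated cells, 65.4% were in Folr2 or Cd163 positive and 26.5% in Folr2 and Cd163 negative C1q macrophage-like cells. In monocyte-like cells, 1 cell held 65 of the 112 Ccl8 molecules of tag 8, 1 held 11 of 46 in tag 9 and 1 held 63 of 93 in tag 10. The levels of Ccl8 in that class thus rest largely on single cells in tags 8 and 10.

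**Figure D1:**
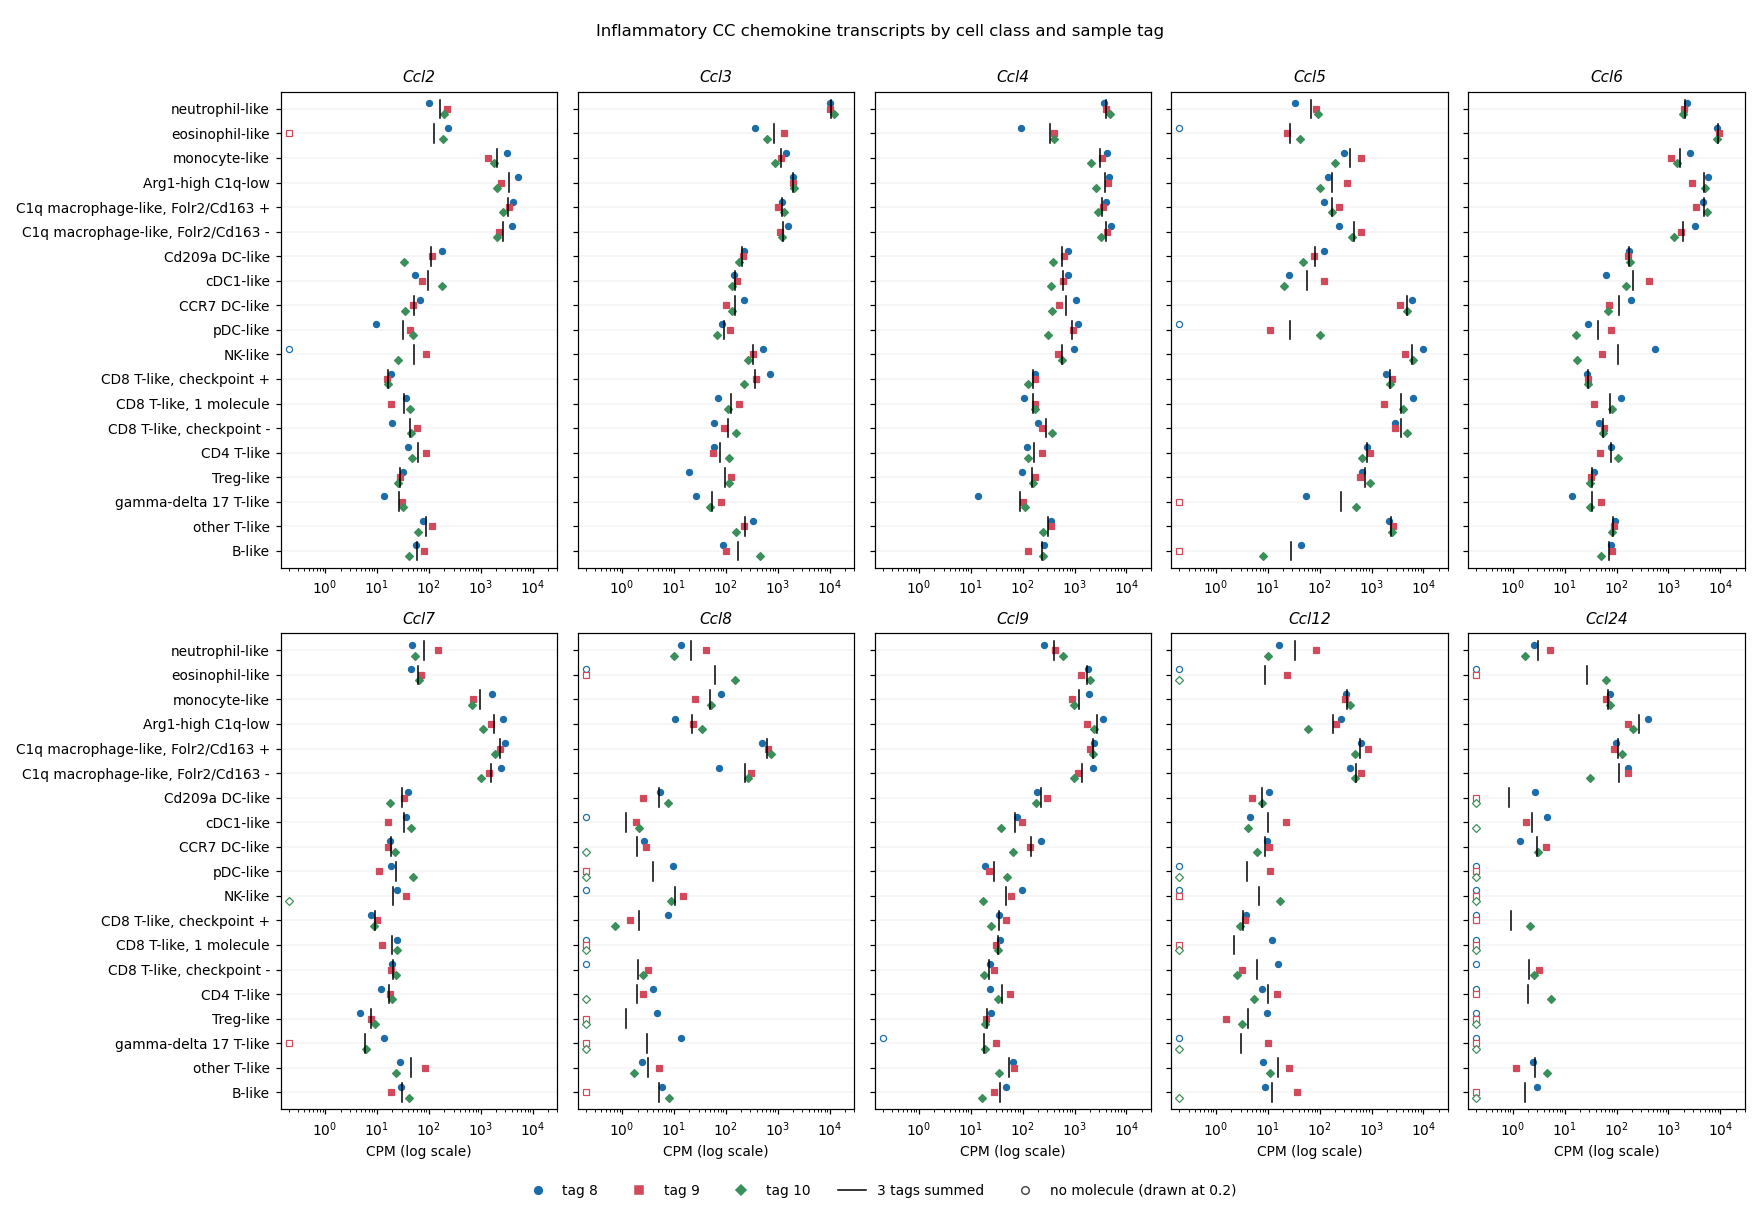
CPM of each of the 10 chemokines (horizontal, log scale) in 19 immune classes (vertical), with 1 point per sample tag and a bar for the 3 tags summed; open points at the left edge stand for no molecule. Ccl3 is highest in neutrophil-like cells (10305, 10086 and 12105), Ccl6 in eosinophil-like cells (8686, 9271 and 8463) and Ccl8 in Folr2 or Cd163 positive C1q macrophage-like cells (491, 639 and 738), in each case with no overlap with the next class.

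Ccl3, a CCR1 ligand also called MIP-1 alpha, was a neutrophil-like transcript. It had 10305, 10086 and 12105 CPM in neutrophil-like cells of tags 8, 9 and 10 and 1991, 2006 and 2026 CPM in Arg1-high C1q-low cells, the next class, with no overlap. At 1000 molecules per cell, 84.3% (81.6 to 86.7%) of neutrophil-like cells and 8.30% (5.14 to 12.5%) of B-like cells had a Ccl3 molecule. Without thinning the shares were 85.9% and 16.5%, at median depths of 1926 and 2197 molecules. Of the 96 Ccl3 molecules in B-like cells, 43 were in 1 cell. Neutrophil-like cells held 42.7% of the Ccl3 molecules of all gated cells.

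Ccl4, or MIP-1 beta, encoded next to Ccl3, was not set apart in neutrophil-like cells. It had 3635, 4084 and 4811 CPM there and 4932, 4304 and 3205 CPM in Folr2 and Cd163 negative C1q macrophage-like cells. Arg1-high C1q-low cells had 4589, 4466 and 2640 CPM, Folr2 or Cd163 positive C1q macrophage-like cells 4014, 3479 and 2776 CPM, and monocyte-like cells 4156, 3395 and 2080.5 CPM. These 5 classes overlapped, and their order cannot be given beyond the spread over tags. All 5 lay above the sixth, pDC-like (plasmacytoid dendritic cell-like) cells, at 1148, 948 and 303 CPM. Ccl4 was found in 33.3% (21.4 to 47.1%) of pDC-like and 8.30% (5.14 to 12.5%) of B-like cells at 1000 molecules per cell, and in 62.1% and 17.7% without thinning, at median depths of 4689 and 2197 molecules.

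Ccl5, or RANTES, which T cells, NK cells and some dendritic cells are known to make, was the 1 member whose levels, with the 3 tags summed, were highest in a lymphoid and then a dendritic class. NK-like cells had 9630, 4509 and 6191 CPM and CCR7 DC-like cells 5909, 3488 and 4838 CPM. These CCR7 DC-like cells were gated on the migration receptor gene Ccr7 together with the actin bundler gene Fscn1 or with Cacnb3. The ranges of NK-like and CCR7 DC-like cells overlapped, and NK-like cells were the higher in all 3 tags. Ccl5 had 1872, 2503 and 2274 CPM in CD8 T-like cells with checkpoint transcripts (2 or more molecules of Pdcd1, Havcr2, Lag3 and Tigit), 2883, 2790 and 4844 CPM in those with none, and 6285, 1718 and 4100 CPM in those with 1 such molecule, a class of 106 cells. CCR7 DC-like cells overlapped with the last pair of classes: in tag 8 they were below the cells with 1 checkpoint molecule, and in tag 10 they were marginally below the cells with none. Other T-like cells had 2125.5, 2537 and 2426 CPM. CD4 T-like cells had 810, 931 and 669 CPM and Treg-like cells 657, 612 and 927 CPM, below all of these. Gamma-delta 17 T-like cells had 54.2, 0 and 508 CPM, and 65 of their 85 molecules were in 1 cell.

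The background of Ccl5 was low. At 1000 molecules per cell, 83.2% (74.1 to 90.1%) of NK-like, 66.2% (62.7 to 69.6%) of CD8 T-like and 64.4% (58.7 to 69.7%) of CCR7 DC-like cells had a Ccl5 molecule, against 1.66% (0.454 to 4.19%) of B-like and 4.45% (3.15 to 6.08%) of neutrophil-like cells. Without thinning the shares were 88.9%, 82.7%, 79.3%, 4.12% and 8.48% in the same order, at median depths of 2717, 4194, 5927, 2197 and 1926 molecules. Ccl5 reached 638 CPM in tag 9 of Folr2 and Cd163 negative C1q macrophage-like cells and 630 CPM in tag 9 of monocyte-like cells, where tag 9 was the highest in both.

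Ccl6 and Ccl9, mouse CCR1 ligands made by myeloid cells, were shared between eosinophil-like cells and macrophages. Ccl6 was also found in neutrophil-like cells, at levels that overlapped those of Folr2 and Cd163 negative C1q macrophage-like cells. Ccl6 had 8686, 9271 and 8463 CPM in eosinophil-like cells, 4693, 3393 and 5526 CPM in Folr2 or Cd163 positive C1q macrophage-like cells and 5697, 2852 and 4957 CPM in Arg1-high C1q-low cells. Eosinophil-like cells did not overlap with either macrophage class, which overlapped each other. Ccl6 was found in 98.6% (92.5 to 99.96%) of 72 eosinophil-like cells and in 7.47% (4.49 to 11.5%) of B-like cells at 1000 molecules per cell, and in 98.8% and 13.2% without thinning, at median depths of 1328 and 2197 molecules.

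Ccl9 had 3463, 1702 and 2379 CPM in Arg1-high C1q-low cells, 2329, 2016 and 2247 CPM in Folr2 or Cd163 positive C1q macrophage-like cells and 1848, 1328 and 2004 CPM in eosinophil-like cells. The first pair of classes overlapped, and eosinophil-like cells were below the Folr2 or Cd163 positive cells in every tag. Neutrophil-like cells had 258, 412 and 596 CPM, below every tag of the 5 leading classes. Ccl24, or eotaxin-2, a CCR3 ligand, was a low transcript led by Arg1-high C1q-low cells, with 398, 165 and 209.9 CPM. C1q macrophage-like cells had 96.05, 88.2 and 127 CPM with Folr2 or Cd163 and 166, 164 and 30.1 CPM without. Arg1-high C1q-low cells overlapped with the cells without these markers and not with the cells that had them. The 10% of Arg1-high C1q-low cells with most Ccl24 held 88.7% of its molecules there, and 24.8% (20.2 to 29.8%) of these cells had any, against 0.412% (0.0104 to 2.27%) of B-like cells, at median depths of 7705 and 2197 molecules. Of the C1q macrophage-like cells with Folr2 or Cd163, 27.7% (23.4 to 32.3%) had any, at a median depth of 11762 molecules. At 1000 molecules per cell the share in Arg1-high C1q-low cells was 11.3% (8.15 to 15.2%). In the cells with Folr2 or Cd163 it was 7.28% (4.97 to 10.2%), and these intervals overlapped. By tag, the thinned shares were 14.4%, 6.49% and 10.7% in Arg1-high C1q-low cells. They were 4.62%, 7.92% and 8.84% in the cells with Folr2 or Cd163, which were thus the higher in tag 9.

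Members were found together in macrophages. At 1000 molecules per cell, the median number of members found in a cell was 5 in Folr2 or Cd163 positive C1q macrophage-like and Arg1-high C1q-low cells, 4 in Folr2 and Cd163 negative C1q macrophage-like cells and 3 in monocyte-like cells. It was 2 in neutrophil-like and eosinophil-like cells and 0 or 1 in every lymphoid and dendritic class. Summed over the 10 genes, Arg1-high C1q-low cells had 24468, 15810 and 15607 CPM, Folr2 or Cd163 positive C1q macrophage-like cells 20710, 17529 and 17966 CPM and neutrophil-like cells 16715, 17204 and 19805 CPM. These sums overlapped. B-like cells had 623, 477 and 860 CPM.

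**Figure D2:**
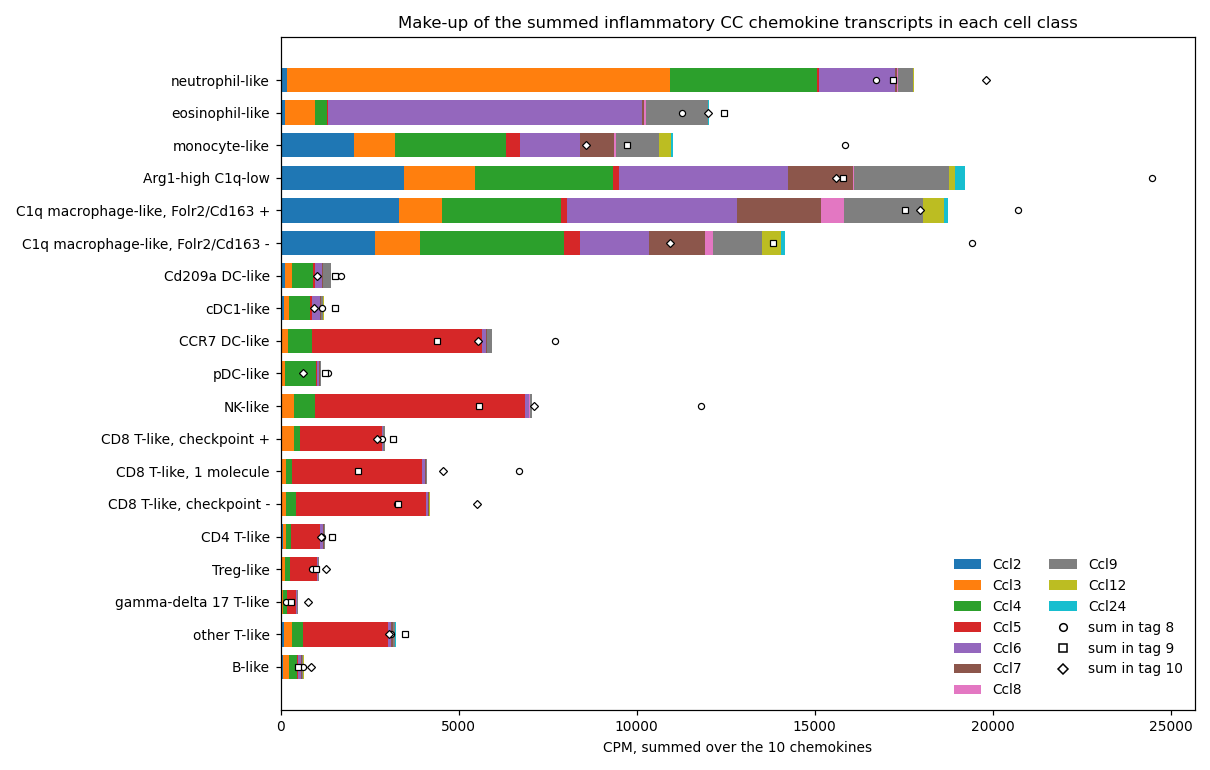
CPM summed over the 10 chemokines (horizontal) in 19 immune classes (vertical); coloured segments are the genes with the 3 tags summed, and open points are the sums in each tag. The sum in neutrophil-like cells (17790) is mostly Ccl3, Ccl4 and Ccl6, that in Arg1-high C1q-low cells (19219) is mostly Ccl2, Ccl3, Ccl4, Ccl6, Ccl7 and Ccl9, and that in NK-like cells (7056) is mostly Ccl5.

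Within classes, some pairs were found in the same cells more often than their separate shares would give. In monocyte-like cells at 1000 molecules per cell, 20.4% of cells had both Ccl2 and Ccl7, 1.61 times the product of their shares, with Spearman's rho of 0.50 over 867 cells. In C1q macrophage-like cells the Ccl2 and Ccl7 ratio was 1.24 (rho 0.58, 1084 cells), and the Ccl6 and Ccl9 ratio was 1.25 (rho 0.56). Ccl3 and Ccl4 had a rho of 0.42 in neutrophil-like cells (832 cells) and 0.40 in C1q macrophage-like cells. Ccl3 and Ccl8 were found together in 4.89% of C1q macrophage-like cells, 0.75 times the product. All pairs share the library and the depth of their cells, and these values are descriptions.

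Across 57 profiles (19 classes in 3 tags), Pearson's r of log2(CPM + 10) was 0.95 for Ccl6 and Ccl9, 0.94 for Ccl2 and Ccl7, 0.91 for Ccl7 and Ccl12 and 0.81 for Ccl3 and Ccl4. Ccl5 had a negative r with each of the other 9, from -0.32 to -0.09. The median r was 0.85 among the 6 pairs of the first group on chromosome 11, 0.78 among the 6 pairs of the second group without Ccl5, and 0.71 between the groups without Ccl5. Ccl24, on chromosome 5, had an r of 0.92 with Ccl7 and 0.90 with Ccl2, as high as pairs of neighbours. The 3 profiles of a class share its cells' identity, and all profiles of a tag share a library.

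**Figure D3:**
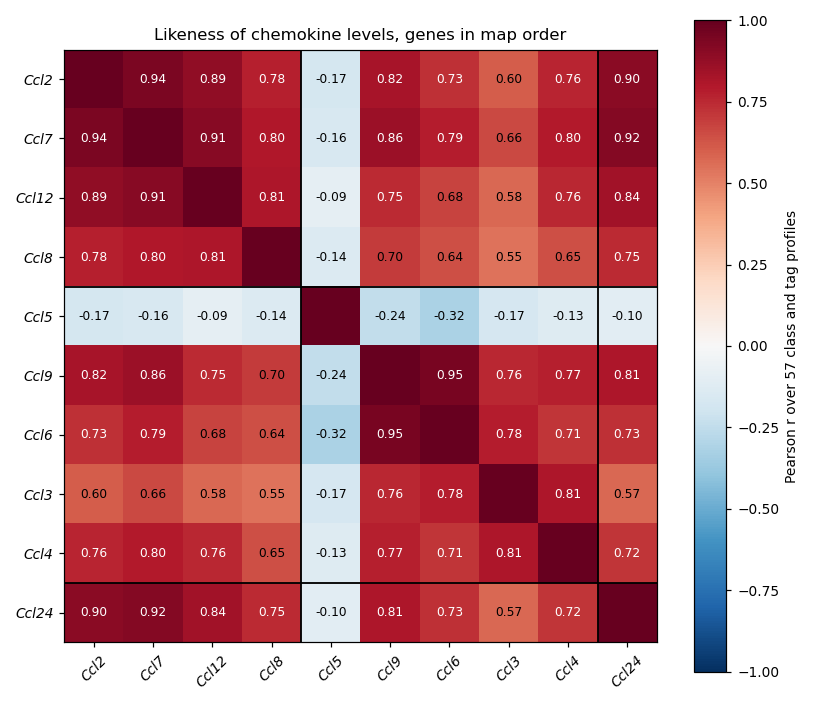
Pearson's r of log2(CPM + 10) between chemokines over 57 class and tag profiles, genes in map order with black lines between the 2 groups on chromosome 11 and Ccl24. Ccl5 is the 1 gene with negative values throughout, and the highest value is 0.95, for Ccl6 and Ccl9.

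Among 9297 other genes with at least 200 molecules, the 3 nearest to Ccl3 in this measure were the complement receptor gene C5ar1 (r = 0.89), the neutrophil chemokine gene Cxcl2 (0.88) and the Toll-like receptor gene Tlr13 (0.88). Those nearest to Ccl2 were Serpinb8 (0.91), the chemokine gene Cxcl1 (0.91) and Ms4a4a (0.91). Ccl7 was nearest to Fam20c, the coagulation factor gene F13a1 and the sialoadhesin gene Siglec1 (0.92 to 0.93), Ccl12 to Ms4a4a, Siglec1 and the cytokine gene Il10 (0.90 to 0.91), and Ccl8 to the complement gene C4b (0.88), Fam213b (0.85) and Serpinb8 (0.85). Ccl6 was nearest to the thrombospondin gene Thbs1 (0.96), the amino acid transporter gene Slc7a8 (0.95) and Cd300ld (0.95), and Slc7a8 also led for Ccl9 (0.94). Ccl5 was nearest to AW112010 (0.87), the interleukin receptor gene Il12rb2 (0.79) and the granzyme B inhibitor gene Serpinb9 (0.78), Ccl4 to the endotoxin co-receptor gene Cd14 (0.90), Igsf6 (0.90) and Ier3 (0.90), and Ccl24 to Fam20c, Flrt2 and the fibronectin gene Fn1 (0.92 each).

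In 8 comparisons of classes, a gene was counted as higher or lower when the log2 ratio of its CPM was past 2-fold in the same direction in all 3 tags, with at least 30 molecules over both classes. Several comparisons share a class and are not independent. In neutrophil-like over C1q macrophage-like cells, 1 of the 10 members was higher and 7 were lower, where 7% of all 9945 genes compared were higher and 21.1% lower. The median log2 ratio was -3.00 over the members and -0.62 over all genes.

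Ccl3 was the member higher in neutrophil-like cells, with 10305, 10086 and 12105 CPM against 1380, 1088 and 1262 CPM in C1q macrophage-like cells, a median log2 ratio of 3.21 (9.27-fold; 2.90 to 3.26 over tags). The CCR2 ligands and Ccl8 were lower: Ccl2 by a median log2 ratio of -3.61, Ccl7 of -4.78, Ccl8 of -4.42 and Ccl12 of -4.98. Ccl24 (-5.57), Ccl5 (-2.39) and Ccl9 (-1.85) were also lower. The Ccl9 call was lost at -1.63 with the mean of per-cell CPM and at -1.34 relative to the median gene. Ccl4, at 0.03 (-0.29 to 0.69), and Ccl6, at -0.80 (-0.85 to -0.19), did not pass. The split of all genes called moved from 24.9% higher to 46.0% with TMM factors and to 58.7% relative to the median gene, and under both Ccl3 stayed higher and Ccl2, Ccl7, Ccl8, Ccl12 and Ccl24 lower.

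Among macrophage and monocyte classes, Ccl8 was the 1 member called. In monocyte-like over C1q macrophage-like cells, Ccl8 was lower (80.5, 26.0 and 51.7 CPM against 296, 424 and 515 CPM; median log2 ratio -3.32) and the other 9 did not pass, where 2.37% of 10141 genes were lower and 0.927% higher. The members' median was -0.70, against -0.07 over all genes, and Ccl6 (-1.14) and Ccl7 (-1.22) also passed as lower without tag 8. In Arg1-high C1q-low over C1q macrophage-like cells, Ccl8 was again the 1 member called, lower at 10.4, 23.7 and 35.3 CPM against 296, 424 and 515 CPM (median log2 ratio -4.16), where 1.73% of 9905 genes were lower and 0.777% higher. Both comparisons share the C1q macrophage-like cells. Over all genes called in the second, 31.0% were higher, which became 42.8% in thinned cells and 53.4% relative to the median gene, and Ccl8 stayed lower in both.

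In the Arg1-high comparison Ccl24 had 398, 165 and 209.9 CPM against 129, 137 and 80.5 CPM, a log2 ratio of 1.63, 0.26 and 1.38, and passed without tag 9. In tag 9, 1 C1q macrophage-like cell held 168 of the 432 Ccl24 molecules of its class, and 1 Arg1-high C1q-low cell held 40 of 104. Ccl12 had log2 ratios of -0.98, -1.75 and -3.00 and passed without tag 8, with the gate minimum doubled (-1.63), with the total free of mitochondrial, ribosomal protein and immunoglobulin genes (-1.79) and with cells of several lineages kept (-1.86). In Arg1-high C1q-low cells of tag 9, 75 of the 133 Ccl12 molecules were in 1 cell. The members' median was -0.03, against -0.18 over all genes.

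Within C1q macrophage-like cells, Ccl8 was higher in those with Folr2 or Cd163 than in those without (491, 639 and 738 CPM against 73.7, 306 and 273 CPM; median log2 ratio 1.43, 1.06 to 2.73), where 0.707% of 9613 genes were higher and 0.499% lower. Its call was lost, at the same median of 1.43, when cells of several lineages were kept. The classes differed in depth, with medians of 11762 and 7908 molecules per cell, and the gate needs at least 1 molecule of Folr2 or Cd163. In cells thinned after gating Ccl8 stayed called, and the part of depth in the gate was not tested. The members' median was 0.38, against 0.02 over all genes. Ccl6 had 4693, 3393 and 5526 CPM against 3246, 1714 and 1252 CPM, a log2 ratio of 0.53 to 2.14 that did not pass. Ccl5 had 124, 237 and 176 CPM against 239.8, 638 and 422 CPM, log2 ratios of -0.95, -1.43 and -1.26, and passed as lower without tag 8, at a mitochondrial limit of 10%, with cells of several lineages kept and with a C1q minimum of 3 molecules in cells that passed no gate.

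**Figure D4:**
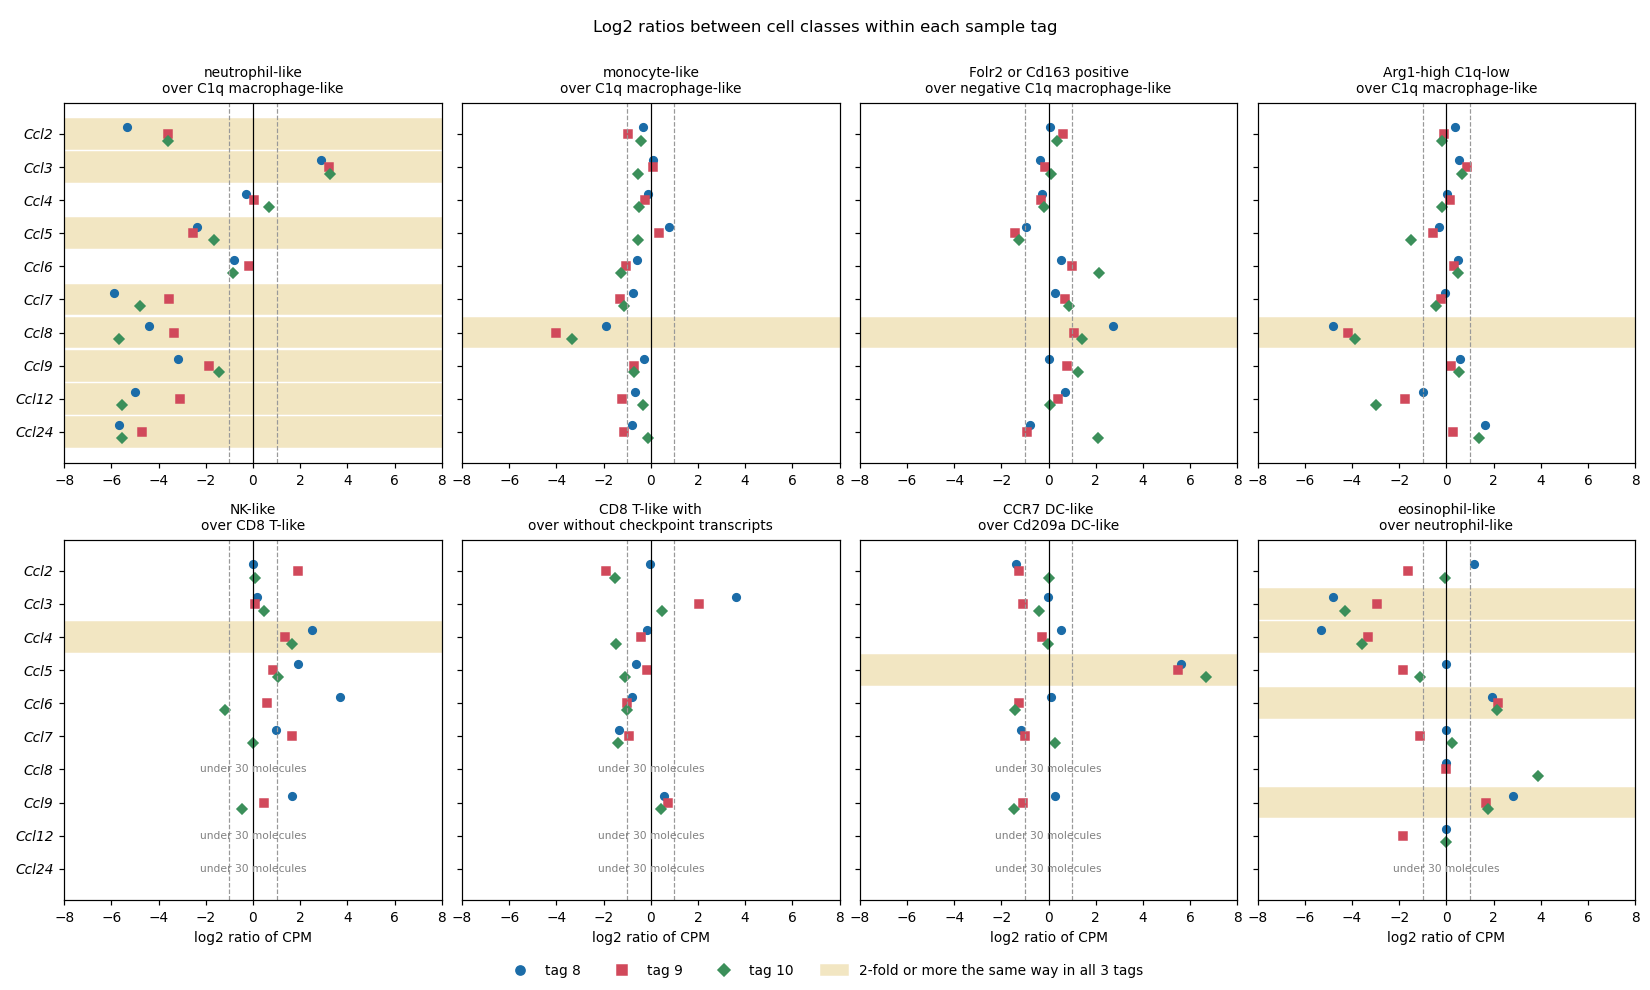
Log2 ratios of CPM within each tag (points) for the 10 chemokines in 8 comparisons of classes; dashed lines mark 2-fold, shading marks members past 2-fold the same way in all 3 tags, and a ratio whose sign only the floor for a count of 0 would set is drawn at 0. In the first panel 8 members are shaded and Ccl3 is the 1 to the right of 0, and Ccl8 is shaded in the first 4 panels.

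In eosinophil-like over neutrophil-like cells, 2 members were higher and 2 lower of 9 compared, where 9.45% of 5123 genes were higher and 3.1% lower. Ccl6 had 8686, 9271 and 8463 CPM against 2301, 2031 and 1924 CPM (median log2 ratio 2.14), and Ccl9 had 1848, 1328 and 2004 CPM against 258, 412 and 596 CPM (1.75). Ccl3 had 370, 1328 and 618 CPM against 10305, 10086 and 12105 CPM (-4.29), and Ccl4 92.4, 403 and 405 CPM against 3635, 4084 and 4811 CPM (-3.57). With TMM factors the higher calls of Ccl6 (1.16) and Ccl9 (0.78) were lost, and the share of higher among all genes called moved from 75.3% to 7.88%. It was 58.4% relative to the median gene, where both stayed called. Ccl5 passed as lower without tag 8 (-1.49, against -1.13 with all tags). The members' median was -0.01, against 0.33 over all genes.

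Among lymphoid cells, Ccl4 was higher in NK-like over CD8 T-like cells, with 985, 476 and 566 CPM against 173, 186 and 181 CPM (median log2 ratio 1.65, 1.35 to 2.51), where 3.61% of 8754 genes were higher and 1.41% lower. The call was lost in thinned cells, at 0.83, and with the mean of per-cell CPM, at 1.24. Ccl5 had 9630, 4509 and 6191 CPM against 2597, 2484 and 2979 CPM, log2 ratios of 1.89, 0.86 and 1.06, and passed without tag 9. Ccl4 was the 1 called of 7 members compared, and their median was 0.62 against 0.00 over all genes. With a wider NK gate, chosen after seeing the data, Ccl2 (2.003, against 0.07 with the main gate), Ccl6 (2.62, against 0.62) and Ccl9 (2.70, against 0.46) passed as higher too. That gate takes cells with 1 NK and at most 1 T molecule (305 cells). No label check is given for these cells, so the values are not read as levels of NK cells. Of all genes called, 72.0% were higher, which became 42.1% with TMM factors, 59.4% with the wider NK gate and 51.5% without tag 8.

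In CD8 T-like cells with over without checkpoint transcripts, none of 7 members compared passed, where 4.05% of 8411 genes were higher and 2.92% lower. Ccl3 had 717, 378 and 221 CPM against 58.2, 91.96 and 160.2 CPM, log2 ratios of 3.62, 2.04 and 0.46, and passed without tag 10 and with cells of several lineages kept (1.46). The groups did not overlap. The 10% of cells with most Ccl3 held 82.5% of its 1198 molecules in the cells with checkpoint transcripts and 75.7% of 107 in those without. Ccl3 was found in 15.1% (11.5 to 19.2%) of the cells with and 10.3% (6.98 to 14.6%) of the cells without checkpoint transcripts at 1000 molecules per cell, and in 42.1% and 19.6% without thinning, at median depths of 7323 and 3152 molecules. Ccl5 had log2 ratios of -0.62, -0.16 and -1.09. Without tag 8, Ccl2 (-1.71) and Ccl6 (-1.01) passed as lower, and without tag 9 Ccl7 (-1.36). Ccl7 also passed as lower with the total free of mitochondrial, ribosomal protein and immunoglobulin genes (-1.39) and relative to the median gene (-1.42). The members' median was -0.62, against 0.12 over all genes, and the share of higher among all genes called moved from 58.1% to 46.3% relative to the median gene.

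In CCR7 DC-like over Cd209a DC-like cells, 1 of 7 members compared was higher, where 7.43% of 7254 genes were higher and 7.55% lower. Ccl5 had 5909, 3488 and 4838 CPM against 122, 77.8 and 46.99 CPM, a median log2 ratio of 5.60 (48.4-fold; 5.49 to 6.69). It was found in 64.4% (58.7 to 69.7%) of CCR7 DC-like and 5.65% (2.74 to 10.1%) of Cd209a DC-like cells at 1000 molecules per cell, and in 79.3% and 23.2% without thinning, at median depths of 5927 and 5944 molecules. With cells of undetermined tag as a further sample its median was 5.54 and the call was lost, since it was not past 2-fold there. The other members ranged in median from -1.26 to -0.03 and did not pass, although Ccl6 (-1.33) and Ccl9 (-1.28) did without tag 8 and Ccl2 (-1.31) without tag 10. With cells of several lineages kept, Ccl12, which had too few molecules to be compared in the main setting (-0.16), passed as higher (3.00). The median over the 7 was -0.995 against -0.09 over all genes. Of 8 other CC chemokine genes in a further list, 2 were compared, and Ccl22, a regulatory T cell attractant that had served as a label check for this class, was higher (median log2 ratio 4.30).

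Receptor transcripts had their own pattern over the same classes. Ccr1, the receptor for CCL3, CCL5, CCL6 and CCL9, had 1972, 1954 and 1668 CPM in neutrophil-like cells, above every other class, and 370, 427 and 448 CPM in eosinophil-like cells. Ccr2, the receptor for CCL2, CCL7 and CCL12, had 911, 691 and 817 CPM in monocyte-like, 935, 846 and 470.2 CPM in gamma-delta 17 T-like and 47.9, 59.6 and 45.8 CPM in neutrophil-like cells. Ccr3, the receptor for CCL24, had 601, 948 and 597 CPM in eosinophil-like cells, against 57.96, 158 and 182 CPM in neutrophil-like cells.

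Of 8 receptor and decoy genes, 4 were compared in neutrophil-like over C1q macrophage-like cells, of which Ccr1 (median log2 ratio 2.58), Ccr3 (4.57) and Ccrl2 (2.34), an atypical receptor that binds chemerin, were higher, and Ccr2 (-3.44) was lower, where 7% of all genes were higher and 21.1% lower. In CCR7 DC-like over Cd209a DC-like cells 2 of 3 compared, Ccr1 (-2.87) and Ccr2 (-3.36), were lower, where 7.55% of all genes were lower. Ackr1 and Ackr2 were not compared in either. Of 8 NF-kappaB targets and feedback genes, 4 were higher in neutrophil-like over C1q macrophage-like cells: Il1b (1.36), Nfkbia (1.29), Nfkbiz (1.73) and Icam1 (1.84), where 7% of all genes were higher. The count was 7 with TMM factors, where 9.83% of all genes were higher, and 8 relative to the median gene, where 11.96% were. In eosinophil-like over neutrophil-like cells all 8 were lower, with a median of -2.52 over the list against 0.33 over all genes, where 3.1% of all genes were lower. All 8 were also lower with TMM factors, where 10.5% of all genes were, and relative to the median gene, where 4.12% were.

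**Figure D5:**
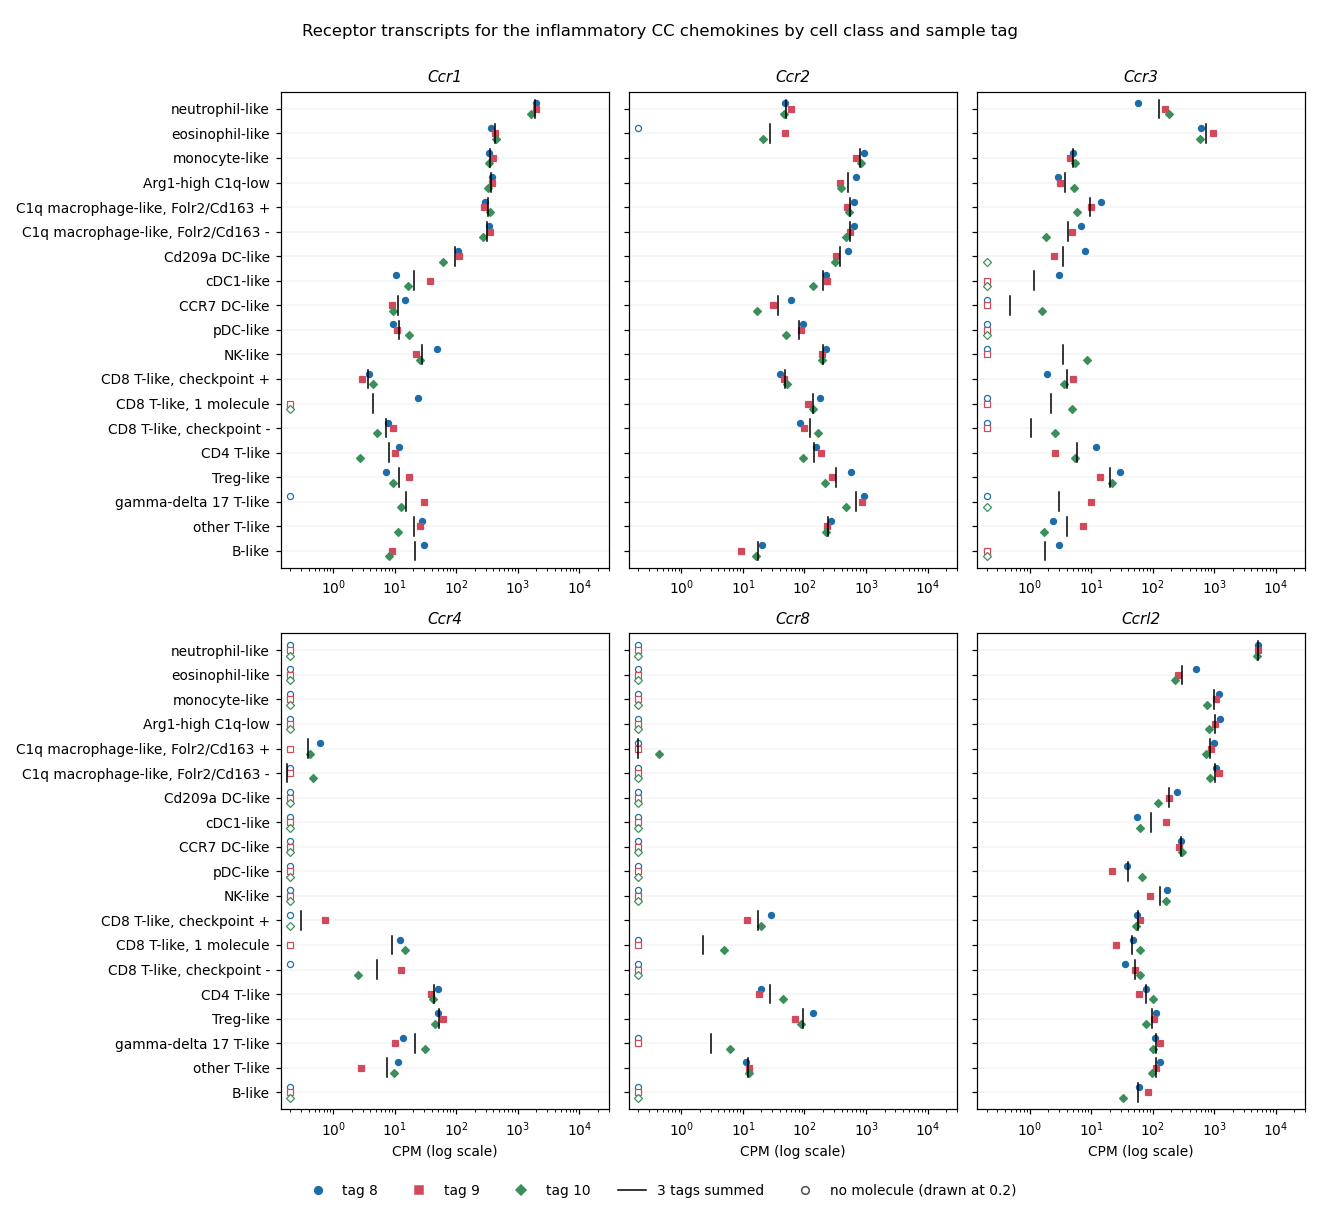
CPM of 6 receptor genes (horizontal, log scale) in 19 immune classes (vertical), with 1 point per sample tag, a bar for the 3 tags summed and open points for no molecule. Ccr1 and Ccrl2 are highest in neutrophil-like cells, Ccr3 in eosinophil-like cells (601, 948 and 597), and Ccr4 and Ccr8 are found mainly in T-like classes.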

How the data were processed

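The deposited table holds whole-number counts of molecules per cell and gene, per the file headers corrected for sequencing errors in molecular identifiers and made by the authors with version 1.9.1 of BD's Rhapsody pipeline for whole transcriptomes (GRCm38, GENCODE vM19). GRCm39 is named in the submitters' processing notes, and the header of the table was followed. The labels name a targeted kit, whereas the table covers 24510 genes. Sample tag calls were the authors' own, and 1448 cells called as carrying several tags and 361 of undetermined tag were left out.

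The cells kept had at least 200 genes and no more than 25% of mitochondrial molecules (10491 cells; 21662592, 21753076 and 23683689 molecules in all cells of tags 8, 9 and 10). Classes were gated on raw counts of marker genes, none of them a chemokine described here: T by Cd3, Trac and Trbc genes, NK by Ncr1, Klrb1c, Klre1 and Eomes without T molecules, B by genes that include Cd79a, Cd79b and Ms4a1, C1q macrophage by at least 10 molecules of C1qa, C1qb and C1qc, Arg1-high by at least 10 molecules of Arg1 and fewer of C1q, monocyte by Ly6c2 and Chil3, neutrophil by Csf3r, Cxcr2, G0s2, Hdc and Retnlg, eosinophil by Siglecf, Il5ra, Epx, Prg2 and Alox15, and dendritic classes by Cd209a, Xcr1 or Clec9a, Ccr7 or Siglech with further genes. No doublet caller was run; cells passing the gates of more than 1 lineage were left out. The genes, lists, gates and comparisons were chosen with earlier results of these data known. A receptor gene of these lists is not reported here.

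Molecules were summed per class and tag and scaled to CPM. Levels carry 95% Poisson intervals and cell shares Clopper-Pearson intervals, all exact, and they cover counting error only. For a ratio, a count of 0 was set to 3 counts, and a ratio whose sign only this floor would set was put at 0. Thinned values rest on cells of at least 1000 molecules drawn to that number. The contrast step was tested on simulated counts. Near genes are the 3 with the highest Pearson's r that are neither a member nor a gate marker. Gene coordinates are from GENCODE vM21 on GRCm38, another release than the authors used. Alternatives were other gates, limits, scalings, minima, tags and cells. The tools were edgeR 4.0.16 in R 4.3.3 for TMM factors, and scipy 1.17.1, pandas 2.3.3 and numpy 2.4.6 in Python 3.11.15.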

Additional observations from a re-analysis of the deposited data

Results flagged for a closer look

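Cells outside every comparison and outside the order of classes were read for each member, and a level above that of 3 molecules was taken for a closer look. Nearly all members passed, so the values describe these cells and set no member apart. The 2349 cells that passed no gate had 981 CPM of Ccl2, 2104 of Ccl3, 3016 of Ccl4, 884 of Ccl5, 1476 of Ccl6, 470.3 of Ccl7, 30.9 of Ccl8, 976 of Ccl9, 138 of Ccl12 and 23.2 of Ccl24. The 1297 cells that passed the gates of more than 1 lineage had 780.5 CPM of Ccl2, 658 of Ccl3, 1333 of Ccl4, 608 of Ccl5, 872 of Ccl6, 503 of Ccl7, 115 of Ccl8, 495 of Ccl9, 182 of Ccl12 and 15.9 of Ccl24. The 1271 cells called as carrying several tags had 1195 CPM of Ccl2, 1590 of Ccl3, 2173 of Ccl4, 993 of Ccl5, 1748 of Ccl6, 754 of Ccl7, 98.4 of Ccl8, 894 of Ccl9, 193 of Ccl12 and 26.0 of Ccl24. The 175 cells of undetermined tag were lower throughout, with 135 CPM of Ccl2, 24.2 of Ccl3, 39.1 of Ccl4, 21.4 of Ccl5, 42.6 of Ccl6, 40.8 of Ccl7, 14.4 of Ccl8, 17.4 of Ccl9 and 4.54 of Ccl12.

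The 18 basophil- or mast-like cells had 1895 CPM of Ccl2, 967 of Ccl3, 1566 of Ccl4, 688 of Ccl6, 2663 of Ccl7 and 279 of Ccl9. The 21 fibroblast-like cells, a type that lacks CD45, had 1746 CPM of Ccl2, 53.5 of Ccl3, 96.8 of Ccl4, 49.4 of Ccl5, 28.8 of Ccl6, 484 of Ccl7, 74.1 of Ccl8, 16.5 of Ccl9 and 14.4 of Ccl12. Over tags 8, 9 and 10 Ccl2 in fibroblast-like cells was 976, 2298 and 1849 CPM, against 58.1 CPM over all B-like cells.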

How the results depend on the processing

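Of 290 recomputed values of the 17 members called in the 8 comparisons, 282 kept their call under 15 alternatives chosen at the outset and 3 chosen after seeing the data, 8 lost it and 0 were reversed. Many of these values could hardly change. A lower minimum of molecules cannot lose a call, and leaving out a tag can lose one only through that minimum. The 3 later alternatives changed the cells of some classes only. The total is therefore no measure of robustness. The class with the highest level was kept for 8 or more of the 10 members under every alternative. The count of members called moved as follows. In neutrophil-like over C1q macrophage-like cells it was lower by the Ccl9 call with the mean of per-cell CPM and relative to the median gene. In Arg1-high C1q-low over C1q macrophage-like cells it was 2 in place of 1 with the gate minimum doubled, with the total free of mitochondrial, ribosomal protein and immunoglobulin genes, and with cells of several lineages kept. In NK-like over CD8 T-like cells it was 0 in place of 1 in thinned cells and with the mean of per-cell CPM, and 4 with the wider NK gate (305 cells, added later, without a label check). In Folr2 or Cd163 positive over negative cells it was 2 in place of 1 at a mitochondrial limit of 10% and with a C1q minimum of 3 molecules in ungated cells (added later). In CD8 T-like cells it was 1 in place of 0 with the total free of those genes, relative to the median gene and with cells of several lineages kept. In eosinophil-like over neutrophil-like cells it was 2 in place of 4 with TMM factors. In CCR7 DC-like over Cd209a DC-like cells it was 2 in place of 1 with cells of several lineages kept and 0 with cells of undetermined tag as a further sample, an alternative that could be made for this comparison only, since the others had a class without such cells. Leaving out each tag gave 8 to 8 members called for neutrophil-like cells, 1 to 3 for monocyte-like, 1 to 2 for Folr2 or Cd163 positive, 1 to 2 for Arg1-high, 1 to 2 for NK-like, 1 to 2 for CD8 T-like, 1 to 3 for CCR7 DC-like and 4 to 5 for eosinophil-like cells; the highest counts for monocyte-like, CD8 T-like, CCR7 DC-like and eosinophil-like cells came without tag 8. The causes were not tested. Ccl8, Ccl12 and Ccl24 had under 30 molecules in the comparisons of lymphoid and dendritic classes, where depth limits what can be said. The ratios between classes were taken within each tag throughout. Between conditions, no paired analysis was possible because the tags carry no replicate number and no named group.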

Other observations

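In the 18 basophil- or mast-like cells, too few for the order of classes, Ccl2 was at 1318, 2127 and 1687 CPM in tags 8, 9 and 10 (4, 10 and 4 cells), and Ccl7 was at 4562, 2502 and 1024 CPM. Counting intervals over all 18 cells were 1635 to 2184 CPM for Ccl2 and 2353 to 3002 CPM for Ccl7. At 1000 molecules per cell, 61.1% of them had a Ccl2 and 44.4% a Ccl7 molecule, against 5.81% and 1.66% of B-like cells.

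In CD8 T-like cells with over without checkpoint transcripts, where no member passed, immediate early and decay genes did: 5 of 6 were lower (4 with TMM factors), among them Fos (median log2 ratio -2.24), an immediate early transcription factor gene, and Zfp36l1 (-2.07), which encodes a factor of mRNA decay. Of 8 interferon response genes Isg15 (-1.92) and Irf7 (-1.45) were lower, and of 8 NF-kappaB targets and feedback genes Il1b (-1.32), Nfkbiz (-1.42) and Zfp36 (-1.67) were lower. Over all genes 2.92% were lower. The classes with and without checkpoint transcripts had median depths of 7323 and 3152 molecules. The part of depth and of free RNA in these ratios, that of Il1b among them, was not tested.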
